A study of Mus musculus with 2 samples.

Results

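Ptx3 and Mrc1 lymphatic endothelial cells are lymphatic cells of the mouse lymph node chosen by the summed transcripts of Mrc1, Reln and Ptx3. These genes encode the mannose receptor CD206, the secreted glycoprotein reelin and the soluble pattern-recognition protein pentraxin 3. A cell need not hold all of them. Here 295 such cells were found among 3779 lymphatic cells and 9919 cells in all. A unique molecular identifier (UMI) marks a single captured RNA molecule. A kept cell had at least 500 detected genes, at most 10% mitochondrial UMIs, at least 10 UMIs of its leading hashtag and at least 3 times as many of that tag as of the next. A lymphatic cell had at least 2 UMIs summed over Prox1, Pdpn, Mmrn1 and Lyve1, and more of these than of Flt1, Ly6c1 and Cd34. The Ptx3 and Mrc1 cells had at least 2 UMIs summed over Mrc1, Reln and Ptx3, and more of these than of each of 4 other panels. Those panels were Coch, Bmp2 and C1ql3 (floor of the subcapsular sinus), Ackr4, Gdf10 and Parm1 (its ceiling), Marco, Flrt3 and C1ql2 (medullary sinus), and Nts, Pkhd1l1 and Fgl2. The cells were therefore chosen by measured values, and their level of these genes is a description. The other lymphatic cells were 1138 floor, 1298 ceiling, 517 Marco, 329 Nts and Pkhd1l1 cells and 202 cells that met the requirements of no panel.

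Endothelial cells were sorted from lymph nodes after digestion and depletion of CD45-positive blood cells, and were captured with 10x Genomics 3′ chemistry. Each of 2 libraries mixed 4 pools told apart by antibody-borne hashtags: peripheral and mesenteric nodes of wild-type (WT) mice, and the same 2 kinds of node of Xbp1-KO mice. All mice of every group received tamoxifen, so the WT groups did too. The labels do not state the Cre line, the exon deleted, the age, the sex or the number of mice behind a pool, and peripheral nodes were pooled before digestion. Xbp1 encodes a factor that switches on genes of the unfolded protein response.

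Lymphatic vessels of a node form a subcapsular sinus, which receives lymph, and cortical and medullary sinuses, which lead it out. The endothelium of these sinuses takes up material from lymph through scavenger and lectin receptors, releases chemokines and growth factors for immune cells, and differs in gene expression from place to place. Pentraxin 3 binds complement components and matrix proteins, the mannose receptor binds and internalises glycoproteins, and reelin is a matrix protein read by lipoprotein receptors and best known from the developing brain.

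Library 1 gave 226 of the Ptx3 and Mrc1 cells and library 2 gave 69. In library 1 these were 96 cells of the WT peripheral pool, 98 of the Xbp1-KO peripheral pool, 23 of the WT mesenteric pool and 9 of the Xbp1-KO mesenteric pool. In library 2 the numbers in the same order were 20, 31, 3 and 15. The median cell held 5766 UMIs, and the summed counts of a pool ranged from 17272 to 540367 UMIs. Levels are given below as CPM, the UMIs of a gene per 1000000 summed UMIs of a pool, and the 3 cells of the WT mesenteric pool of library 2 were left out of sums and fits. Each pool in a library stood for 1 replicate, and p-values measure the spread between these pools, since the number of mice behind a pool is not given. Xist, transcribed in female cells, was found in 83.1% and 73.7% of the cells of the Xbp1-KO pools of library 1 and in 84.7% and 77.0% of those of the WT pools of library 2, and in at most 5.08% of the cells of every other pool. Ddx3y of the Y chromosome was found in 22.9% to 31.9% of the cells of those other pools. Sex and genotype therefore cannot be told apart within a library, and the 2 libraries had them the opposite way round. Pools of the same group thus came from different mice in the 2 libraries.

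The label was first checked against markers. Flt4, the VEGF-C receptor, which the selection did not use, was detected in 93.2% of the Ptx3 and Mrc1 cells and in 11.6% of the blood endothelial cells, or in 73.4% and 7.08% of cells thinned to 2000 UMIs. Prox1, Pdpn, Mmrn1 and Lyve1 chose the cells and are no check. Of 16 macrophage and myeloid genes, which matter because macrophages also use Mrc1, 5 were at 0 in all 295 cells: Ptprc (CD45), Csf1r, Adgre1, C1qa and Itgam. A count of 0 in 295 cells allows a share of up to 1.02% of cells with a UMI. The summed level of the myeloid list was 15.9 to 97.5 CPM by pool (median 69.7), beside 90.8 to 145 CPM (median 135) in the other lymphatic cells, and its leading gene was Ctss with 106 UMIs. Among lymphocyte genes, 3 of 11 were at 0 and the sum reached at most 26.4 CPM. Col1a1, Col3a1 and Lum were at 0 among 13 reticular, fibroblast and mural genes, whose sum ran from 95.6 to 668 CPM, beside 278 to 892 CPM in the other lymphatic cells, and was led by Mylk. Pdgfra of the same list was found in 6 cells (2.03%), beside 0.201% of the other lymphatic cells, and was above all 4 other panels in 5 of 7 pools, as Des was in 4. Of 8 mesothelial and epithelial genes 7 were at 0, and of 5 red cell genes 4. The 3 cell barcodes that the libraries shared included none of the 295 cells.

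The 3 genes of the panel were not present in the same cells throughout. All 3 were found together in 121 cells (41.0%), Mrc1 with Reln but no Ptx3 in 100 (33.9%), Mrc1 alone in 26, Mrc1 with Ptx3 in 25, Reln alone in 13, Reln with Ptx3 in 8 and Ptx3 alone in 2. Mrc1 (chromosome 2, 14229392 to 14332057, plus strand, GRCm38) was detected in 92.2% of the 295 cells, Reln (chromosome 5, 21884454 to 22344702, minus strand) in 82.0% and Ptx3 (chromosome 3, 66219910 to 66225805, plus strand) in 52.9%. The Marco cells had Mrc1 in 61.7%, Reln in 25.3% and Ptx3 in 2.13% of cells. Blood endothelial cells, at a lower median depth of 2871 UMIs, had Mrc1 in 0.487%, Reln in 0.261% and Ptx3 in 0.122%. Thinned to 2000 UMIs per cell, which left out 6 of the 295 cells, detection was 78.9% for Mrc1, 47.8% for Reln and 36.0% for Ptx3.

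The panel summed to a median of 8 UMIs per cell (range 2 to 31), and the highest of the other panels to a median of 2 (range 0 to 13). At the edge of the selection, 14 cells had a panel sum of exactly 2 and 20 had 3, while 4 further lymphatic cells carried a single UMI of the panel and none of another. A further 38 lymphatic cells tied with another panel, and 439 had at least 2 UMIs of the panel but more of another, 248 of them Marco cells. In 43 of the chosen cells the lead over the next panel was a single UMI, and 30 cells held no UMI of any other panel. The border with the Marco cells was thus the most crowded.

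Outside the 22 genes of the selection, 3971 genes reached a mean of 50 CPM in the Ptx3 and Mrc1 cells or in the other lymphatic cells. Of these, 443 were higher and 330 lower in the Ptx3 and Mrc1 cells in all 7 pools compared. By a median log2 ratio of at least 1, with 1 CPM added, 95 were higher and 147 lower. No test was made here, since the cells were chosen on values of the same cells.

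The gene with the highest ratio was Apba2, which encodes an adaptor of the amyloid precursor protein. It stood at 97.2 ± 38.3 CPM (SD, n = 7 pools) in the Ptx3 and Mrc1 cells and at 2.45 ± 1.61 CPM in the other lymphatic cells, a median log2 ratio of 4.31. Hpgd, the enzyme that inactivates prostaglandins, stood at 80.0 ± 39.4 against 6.74 ± 5.08 CPM (3.75). Itih5, an inter-alpha-trypsin inhibitor heavy chain of the hyaluronan matrix, stood at 323 ± 187 against 28.0 ± 9.63 CPM (3.48). In each of these 3 genes the lowest pool of the Ptx3 and Mrc1 cells lay above the highest pool of the other lymphatic cells.

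The 24 genes with the highest ratios also held 2 vessel growth factors. Angpt2, the context-dependent TIE2 ligand, stood at 269 ± 89.5 against 43.7 ± 13.2 CPM (log2 ratio 2.63), and Pgf, placental growth factor, at 58.8 ± 71.7 against 3.62 ± 3.19 CPM (3.17), with a wide spread between pools that is taken up below. Kcnj8, the pore of a potassium channel gated by ATP, stood at 111 ± 27.3 against 14.2 ± 10.4 CPM (3.07). Gmfg, a regulator of branched actin, stood at 327 ± 81.2 against 54.9 ± 14.4 CPM (2.76), and fell to a log2 ratio of 1.60 when cells were thinned to 2000 UMIs. The proteases and matrix genes Pcsk6 (3.01), Adamts5 (2.47) and Nid2 (1.99), the survival and cycle regulators Bcl2 (2.71) and Ccnd2 (3.32), and the membrane exchanger Slc9a9 (1.93) were also higher in every pool, before thinning, by these median log2 ratios.

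Sh3pxd2b (3.66), Tc2n (2.53), Creb5 (2.25), Plxdc2 (2.10), Lrrn4cl (1.97), Adgrg3 (1.97), Ptgfrn (1.94), Fyn (1.87) and Gnpda1 (1.85) were also among the 24. Creb5 depended on single pools, at 7.53 to 228 CPM, and its log2 ratio was 0.71 after thinning to 2000 UMIs per cell. Thinning also lowered Hpgd to 2.94, Tc2n to 1.55 and Ptgfrn to 1.22. After it 9 of the 24 were higher in all 7 pools and the others in 5 or 6. Against each other panel taken alone, 16 of the 24 were higher than all 4 in every pool. All 24 were above the floor cells in every pool, 23 above the ceiling cells, 20 above the Marco cells and 20 above the Nts and Pkhd1l1 cells. Plxdc2, Gnpda1 and Ptgfrn were nearly shared with the Marco cells, with median log2 ratios of 0.33, 0.68 and 0.88 and higher levels in 5, 5 and 6 of 7 pools. Creb5 was at a median log2 ratio of 0.12 to the Nts and Pkhd1l1 cells. In blood endothelial cells, Itih5 was about as high as in the Ptx3 and Mrc1 cells, as the plot of levels by cell class shows.

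The genes lowest in the Ptx3 and Mrc1 cells belonged to the floor and other sinus cells. Ccl20, the CCR6 ligand of floor cells, had no UMI in the 7 pools of Ptx3 and Mrc1 cells and stood at 305 ± 152 CPM in the other lymphatic cells. Igfbp5, an IGF-binding protein, stood at 10.1 ± 19.0 against 111 ± 35.9 CPM, and Ptn, pleiotrophin, at 4.40 ± 6.01 against 154 ± 64.3 CPM. Glycam1, a mucin best known from high endothelium, stood at 178 ± 135 against 3701 ± 1925 CPM. Kcnj2, Rgs4, Plat, Dkk2, Gcnt1, Timp4, Bst1 and Chst2 completed the 12 lowest, with medians of log2 ratio from -6.1 to -4.75. Without library 2 the medians of Plat, Timp4, Bst1 and Chst2 were -4.15, -3.91, -3.34 and -3.31, and that of Chst2 was -3.07 after thinning. Of the 12, only Ptn was lower than in all 4 other panels in every pool.

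**Figure D1:**
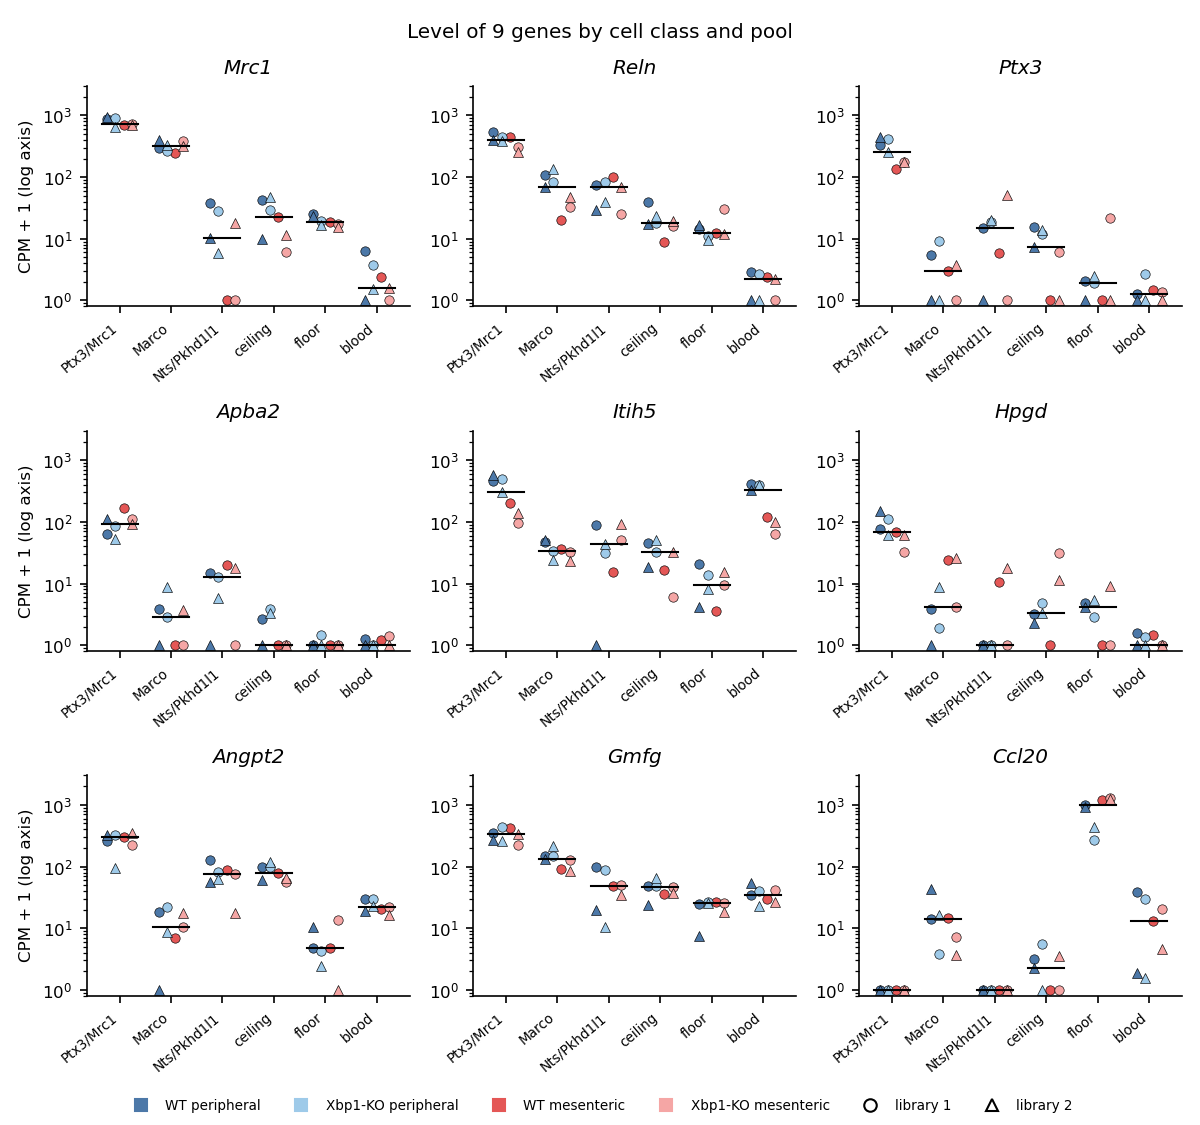
Level of 9 genes by cell class, in CPM plus 1 on a log axis. Each point is a pool, colours are the 4 groups, circles and triangles are libraries 1 and 2, and the bar is the median over pools; Apba2 and Angpt2 were highest in the Ptx3 and Mrc1 cells, Itih5 was also high in blood endothelial cells, and Ccl20 was at 0 in all 7 pools of Ptx3 and Mrc1 cells.

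Members with a Ptx3 UMI (156) were set beside members without (139), library by library, over 3676 genes with at least 50 CPM on either side. By a log2 difference of at least 1 in both libraries, 8 genes were higher with Ptx3, itself included, and 17 were lower. As Ptx3 chose these sets and the cells with Ptx3 were deeper (peripheral cells of library 1 had a median of 5661.5 against 4736 UMIs), the values are a description.

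Next to Ptx3, the genes that went with it were Itih5, Hpgd and Adamts5, which were also among the 24 leading genes, and Rsad2, Cmpk2, Fbln2 and Gja1. Itih5 stood at 596 CPM with and 218 CPM without Ptx3 in library 1, and at 442 and 193 CPM in library 2. Rsad2, the interferon-induced antiviral enzyme viperin, stood at 353 and 84.8 CPM in library 1 and at 107 and 4.59 CPM in library 2. In library 2 the WT peripheral and Xbp1-KO mesenteric pools held none of it, as given below, so its values there rest on few cells. Cells without Ptx3 held more Apoe, apolipoprotein E, at 1540 against 403 CPM in library 1 and 1231 against 505 CPM in library 2. They also held more of the small leucine-rich proteoglycan Prelp (143 against 25.3 and 142 against 33.1 CPM), of the alarmin Il33 (227 against 61.8 CPM in library 1, and again more in library 2) and of Csf1, the macrophage growth factor (449 against 214 and 377 against 158 CPM). The sides also differed in tissue: in library 1, 9 of the cells with Ptx3 and 23 of those without were mesenteric, beside 112 and 82 peripheral ones. In library 2 the mesenteric numbers were 10 and 8, beside 25 and 26 peripheral ones.

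Ptx3 and Mrc1 cells made up a larger share of the lymphatic cells in peripheral than in mesenteric pools. The peripheral pools held 9.67% (WT, library 1; exact 95% interval 7.90 to 11.7), 8.16% (WT, library 2; 5.06 to 12.3), 7.46% (Xbp1-KO, library 1; 6.1 to 9.01) and 9.34% (Xbp1-KO, library 2; 6.43 to 13.0). The mesenteric pools held 5.17% (WT, library 1; 3.30 to 7.65), 4.62% (WT, library 2; 0.962 to 12.9), 5.49% (Xbp1-KO, library 1; 2.54 to 10.2) and 6.79% (Xbp1-KO, library 2; 3.85 to 10.9). Every peripheral pool was above every mesenteric pool, although the intervals, which cover counting error only, overlapped. The mean was 8.66% ± 1.03 (SD, n = 4) against 5.51% ± 0.922 (n = 4), a difference of 3.14 percentage points. The exact two-sided permutation test gave p = 0.0286, the smallest that 4 pools against 4 allow, and 0.0571 after Benjamini-Hochberg adjustment over the 2 share comparisons.

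The difference was 3.23 points in library 1 and 3.05 in library 2. Genes of the selection themselves differed between the tissues within the Ptx3 and Mrc1 cells: Lyve1, the hyaluronan receptor, stood at 3981, 4154, 4713 and 2757 CPM in the peripheral pools (WT then Xbp1-KO, library 1 then library 2, here and below) and at 2280, 2534 and 2694 CPM in the mesenteric pools, and Ptx3 at 333, 420, 447 and 251 against 137, 175 and 176 CPM. Mrc1 stood at 885, 917, 949 and 640.5 against 707, 717 and 694 CPM, with overlapping pools. The share is therefore not read as a change in the number of these cells. Xbp1-KO pools had a share of 7.27% ± 1.60 and WT pools 6.90% ± 2.41 (SD, n = 4 each), a difference of 0.364 points with an exact permutation p of 0.857. The genotype difference was -0.945 points in library 1 and 1.67 in library 2, so its sign was not the same in both.

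**Figure D2:**
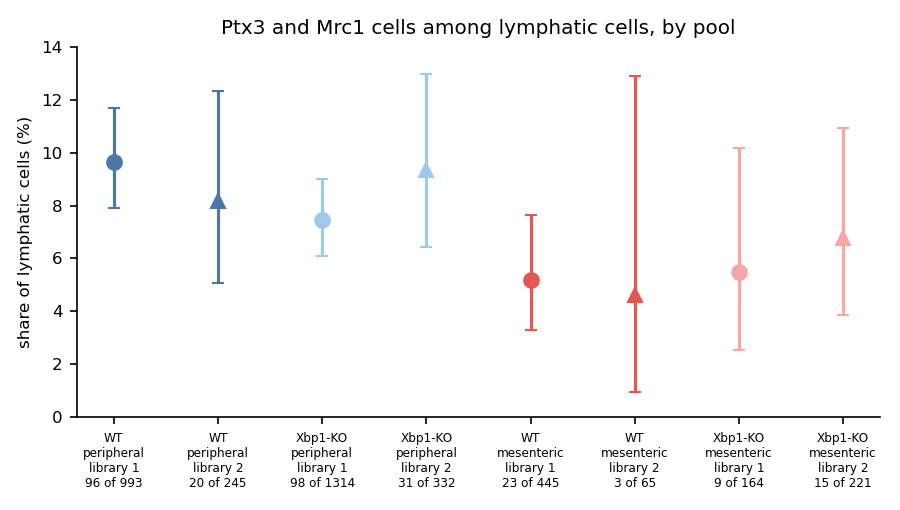
Share of the lymphatic cells (%) that were Ptx3 and Mrc1 cells in each of the 8 pools, with exact 95% binomial intervals and the cell numbers under each pool. The 4 peripheral pools lie between 7.46% and 9.67% and the 4 mesenteric pools between 4.62% and 6.79%.

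Gene expression of the Ptx3 and Mrc1 cells differed between peripheral and mesenteric nodes. The sums of 4 peripheral and 3 mesenteric pools were compared with edgeR's quasi-likelihood test, which models counts with a spread shared across genes, and a gene was called at a Benjamini-Hochberg adjusted p under 0.05 over all genes tested. Of 4201 genes that passed the filter on low counts, 198 were higher in peripheral pools (4.71%) and 93 lower (2.21%), with 833 genes at an unadjusted p under 0.05. The median log2 difference of all 4201 genes was 0.01, and 283 of the 291 called genes had the same direction in both libraries. The genes were called on these same sums, so this is no separate support. For library 2 the direction came from the Xbp1-KO pools only, since its WT mesenteric pool was left out. In the WT pools alone 140 genes were called, in the Xbp1-KO pools alone 67 and by DESeq2 75. The WT comparison set 2 peripheral pools against a single mesenteric pool, which was assumed to vary like the pools of the other groups. The mesenteric side rested on sums of 23, 9 and 15 cells. The labels describe digestion for peripheral nodes only, so handling and tissue cannot be told apart.

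Several genes had peripheral and mesenteric pools that did not overlap. Selenop, the selenium carrier of plasma, stood at 5661, 5558, 5287 and 4641 CPM in the peripheral pools and at 1801, 2678 and 2358 CPM in the mesenteric pools. The lowest peripheral pool was thus above the highest mesenteric pool by a wide margin. The log2 difference was 1.40 ± 0.15 (SE, edgeR adjusted p = 1.30e-06). Here and below, log2 differences are peripheral minus mesenteric, the mean of both genotypes.

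Tnc, the matrix glycoprotein tenascin C, stood at 1406, 1708, 1547 and 840 CPM against 365, 319 and 351 CPM, a log2 difference of 2.05 ± 0.23. F8, coagulation factor VIII, for which lymphatic endothelium is a known source, stood at 1654, 1680, 1324 and 1276 CPM against 479, 685 and 603 CPM (1.51 ± 0.19). Il6st, the shared signalling receptor gp130, stood at 1645, 1781, 1715 and 1587 CPM against 540, 797 and 504 CPM (1.61 ± 0.19). In none of the 3 genes did a peripheral pool fall as low as any mesenteric pool. The lysosomal protease Lgmn (1.82 ± 0.23) and the chloride channel regulator Clca3a1 (2.12 ± 0.24) behaved the same way, with lowest peripheral pools of 682 and 650 CPM and highest mesenteric pools of 328 and 298 CPM.

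A pair of genes with the opposite direction was as well separated. Angptl4, a secreted inhibitor of lipoprotein lipase, stood at 61.1, 67.8, 39.9 and 51.1 CPM in the peripheral pools and at 334, 462 and 221 CPM in the mesenteric pools (-2.38 ± 0.27, edgeR adjusted p = 1.95e-06). Bcl6b, a transcriptional repressor of the BCL6 family, stood at 51.8, 39.5, 15.9 and 60.3 CPM against 251, 175 and 191 CPM (-2.18 ± 0.30, adjusted p = 2.23e-05). Selenop, Tnc, F8, Il6st, Lgmn, Clca3a1, Angptl4 and Bcl6b were chosen for description after their values had been seen. Of the called genes, 159 of the 198 higher and 66 of the 93 lower in peripheral nodes had pools that did not overlap, as had 775 of all 4201 genes tested.

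**Figure D3:**
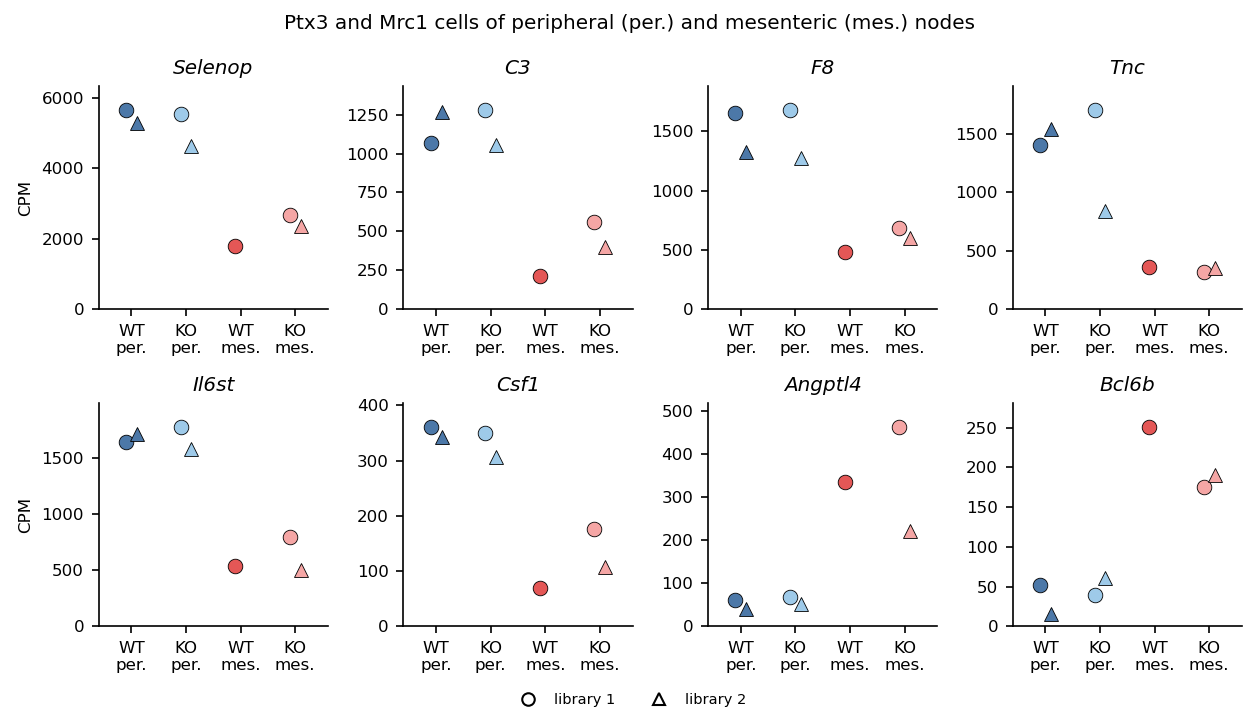
Level (CPM, axes from 0) of 8 genes in the Ptx3 and Mrc1 cells by group, with a point for each pool, circles for library 1 and triangles for library 2. Selenop, C3, F8, Tnc, Il6st and Csf1 were higher in all 4 peripheral than in all 3 mesenteric pools, and Angptl4 and Bcl6b lower; the highest mesenteric level of C3 was 558 CPM and the lowest peripheral level 1054 CPM.

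Most of the tested complement genes and partners of pentraxin 3 were called higher in peripheral cells. Of 28 genes on the list 10 passed the filter, 7 of them were called higher and none lower, and the median log2 difference was 1.51 beside 0.01 for all genes. C3, the central complement component, stood at 1066, 1280, 1268 and 1054 CPM in the peripheral pools and at 213, 558 and 397 CPM in the mesenteric pools (1.97 ± 0.21, edgeR adjusted p = 1.77e-06). The pools of the 2 tissues did not overlap.

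Also called were Itih5 (1.62 ± 0.25), C2 (1.63 ± 0.30), the C1 inhibitor Serping1 (2.37 ± 0.63) and the membrane protectors Cd55 (1.05 ± 0.18) and Cd59a (0.98 ± 0.25). Cfb, factor B, at 0.62 ± 0.20 (edgeR adjusted p = 0.0614), Clu, clusterin, at 0.79 ± 0.30 (0.119), and C1ra at 1.41 ± 0.69 (0.252) did not pass. With dividing cells left out, as described below, 6 of 9 tested list genes were called higher. DESeq2 called 4 of the 10, and the WT pools alone and the Xbp1-KO pools alone 5 each. Leaving out the WT peripheral pool of library 1 or the Xbp1-KO mesenteric pool of library 2 also gave 5.

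Ligands for leukocytes and antigen presentation genes were also higher in part. Of 13 tested chemokines and niche cytokines 4 were called higher and none lower (median 0.91, or 0.84 with genes absent from a group set at their lower bound): Csf1, Il33, Il7 and Cxcl12. DESeq2 called 2 higher, as did the fit without dividing cells. The WT pools alone gave 2 higher and 1 lower, and leaving out the Xbp1-KO peripheral pool of library 2 gave 6 higher and 2 lower of 12. Csf1 stood at 361, 350, 343 and 306 CPM against 68.4, 175 and 107 CPM (1.92 ± 0.26, edgeR adjusted p = 1.87e-05), with no overlap. Cxcl12, the CXCR4 ligand, was absent from both Xbp1-KO mesenteric pools and stood at 91.1 CPM over the Xbp1-KO peripheral pools, at least 5.88-fold higher against a floor of 3 UMIs over the group. It stood at 7.6 CPM in the WT mesenteric pool of library 1.

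Of 11 tested antigen presentation genes 5 were called higher (H2-K1, H2-D1, B2m, Cd74 and Tap2) and none lower, with a median of 0.64. H2-K1, a class I heavy chain, differed by 0.72 ± 0.15 and B2m, its light chain, by 0.57 ± 0.14. DESeq2 called 1 of the 11, the Xbp1-KO pools alone 0, and 1 of 10 was called with dividing cells left out. Among 21 interferon-stimulated genes, 5 were called higher (Rsad2, Gbp3, Gbp4, Iigp1 and Igtp) with a median of 0.86, and DESeq2 and the Xbp1-KO pools alone each called 0, while 1 of 19 was called without dividing cells. Rsad2 varied between pools of the same group: it stood at 342, 188, 0 and 139 CPM in the peripheral pools and at 22.8, 159 and 0 CPM in the mesenteric pools.

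Of 11 tested scavenger and lectin receptors 3 were called higher (Stab2, Clec1a and Clec14a), none lower, with a median of 0.57, and 0 with dividing cells left out. Stab2, the hyaluronan scavenger receptor, differed by 0.86 ± 0.19, while its relative Stab1, at 0.42 ± 0.18, did not pass (edgeR adjusted p = 0.190). Of 17 lymphatic identity genes Fxyd6 and Lbp were called higher and Nrp2 lower, and Flt4 differed by 0.03 ± 0.19. Prox1, which is not on that list and helped to choose the cells, differed by 0.07 ± 0.19, which is a description only. DESeq2 called 0 of the 17, and 0 were lower with library and sex in the fit or without dividing cells. Spns2, the exporter of the lymphocyte egress signal S1P, was called higher (0.90 ± 0.26) as the only one of 5 tested S1P and LPA genes. That call was lost by DESeq2, in either genotype alone, without dividing cells, and with library and sex in the fit.

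Of 17 VEGF, angiopoietin and guidance genes 4 were lower in peripheral cells and 1, Plxna4, was higher (median 0.17). DESeq2 called 2 lower, as did the fit without dividing cells, and neither called one higher. Pgf stood at 9.25, 7.53, 7.97 and 18.6 CPM in the peripheral pools and at 198, 63.8 and 107 CPM in the mesenteric pools (-3.60 ± 0.55, edgeR adjusted p = 7.78e-05). The wide spread of Pgf noted above thus lay between the tissues. Nrp2, the VEGF-C co-receptor (-0.64 ± 0.19), the semaphorin receptor Plxnd1 (-0.91 ± 0.19) and the netrin receptor Unc5b (-1.02 ± 0.20) were the others. Angpt2, by contrast, differed by -0.18 ± 0.28 and did not pass.

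Of the reelin pathway, 4 of 8 genes were tested: the adaptor Dab2 was higher (0.83 ± 0.23) and the kinase Fyn lower (-1.04 ± 0.30) in peripheral cells. Both calls were lost by DESeq2, with library and sex in the fit, and without any of the 2 WT peripheral pools and the 2 Xbp1-KO pools of library 1. Of 21 matrix genes 4 were higher (Sparcl1, Timp3, Itih5 and Igfbp7) and Nid2, nidogen 2, was lower (-1.14 ± 0.27), while DESeq2 and each genotype alone gave 2 higher and 0 lower. Of 15 adhesion and junction genes Jam3 and Alcam were higher and Madcam1 lower, but 0 were higher by DESeq2, in either genotype alone or without dividing cells. Of 9 valve and flow genes Cldn11 and Klf4 were higher, and DESeq2 called 1. Plvap, a protein of endothelial diaphragms (1.19 ± 0.23), and Cd300lg (1.23 ± 0.32) were called higher among 8 tested blood endothelial genes, of which DESeq2 called 1 and the WT pools alone 0. None of 28 tested endoplasmic reticulum targets of XBP1 (median 0.13) and none of 11 NF-kB and lymphotoxin genes (median 0.28) was called.

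Among genes of the response to heat and tissue dissociation, 9 of 26 were higher in peripheral cells (Fos, Fosb, Jun, Junb, Egr1, Ier2, Dusp1, Zfp36 and Socs3) and 2 lower (Atf3 and Hsph1). DESeq2 and the WT pools alone each gave 4 higher, the Xbp1-KO pools alone 2, and none of these gave a lower one. The summed level of this list in the Ptx3 and Mrc1 cells was 17278 to 22217 CPM by pool, below the 22303 to 42084 CPM of the other lymphatic cells. Fos, Fosb, Jun, Junb, Zfp36 and Socs3 were below each of the 4 other panels in all 7 pools. Of the reticular and mural genes Dcn, decorin, was called: it stood at 137, 126, 55.8 and 144 CPM against 7.60, 0 and 7.63 CPM (4.26 ± 0.62). No myeloid, lymphocyte, mesothelial or red cell gene reached the level to be tested, and neither of 2 sex-linked genes was called. The part of dissociation and of reticular RNA in these results was not tested.

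Several of the genes with the highest fitted differences were absent from a whole mesenteric group, so that only lower bounds can be given: this holds for 9 of the 12 named as highest, and for 10 of the 198 called. Over the WT pools, Gbp4 was at least 6.32-fold, Postn at least 5.20-fold, Rgs2 at least 4.35-fold, Gpam at least 3.56-fold, Pink1 at least 3.29-fold, Edn1 at least 3.03-fold and C1qtnf7 at least 2.96-fold higher in peripheral nodes. Sparcl1 was at least 4.15-fold higher over the Xbp1-KO pools. Of these, Rgs2, Pink1, Gpam and Gbp4 differed by -0.03, 0.15, 0.79 and 0.40 in the Xbp1-KO pools alone and were not called there. The other 3 named genes were Dcn, the antiprotease Serpina3n (3.53 ± 0.69), and Pdgfb, a pericyte growth factor (3.07 ± 0.52).

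On the lower side, the 12 named genes were Lockd, Prc1, Ube2c, Emp1, Hist1h2ap, Pgf, Mall, Cdc20, Idi1, Madcam1, Cks2 and Creb5. Emp1, an epithelial membrane protein, stood at 3.70, 11.3, 0 and 0 CPM in the peripheral and at 137, 63.8 and 76.3 CPM in the mesenteric pools. Madcam1, the ligand of the gut-homing integrin, stood at 24.1, 11.3, 0 and 9.28 CPM against 129, 255 and 61.1 CPM (-3.14 ± 0.58). Prc1 and Ube2c are genes of dividing cells and were set by few pools. Prc1 stood at 517 CPM and Ube2c at 410 CPM in the WT mesenteric pool of library 1, and Ube2c at 0 in the Xbp1-KO mesenteric pool of library 1.

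Dividing cells were counted directly, as cells with at least 2 UMIs of Mki67, Top2a, Birc5, Ccnb1, Cdk1 and Ube2c. Of the mesenteric Ptx3 and Mrc1 cells 10 of 50 qualified, and of the peripheral ones 6 of 245. By pool, the WT mesenteric pool of library 1 had 7 of 23 (30.4%, exact 95% interval 13.2 to 52.9), the Xbp1-KO mesenteric pool of library 2 had 2 of 15 (13.3%), the Xbp1-KO mesenteric pool of library 1 had 0 of 9, and the WT mesenteric pool of library 2, left out of the fits, had 1 of 3. The peripheral pools had 2 of 96, 4 of 98, 0 of 20 and 0 of 31. The other lymphatic cells had shares of 0.444% to 3.23% by pool. Of 8 tested dividing genes Mki67, Ube2c and Hmgb2 were called lower in peripheral cells (median -2.59).

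Without the dividing cells 152 genes were called, 97 higher and 55 lower, and 90 and 33 of these were among the original calls. Selenop, C3, Tnc, F8, Il6st, Lgmn, Clca3a1, Csf1, Angptl4 and Bcl6b remained called without them, by DESeq2, in either genotype alone, and with any single pool that could be left out removed; the WT mesenteric arm was 1 pool of 23 cells throughout. The genes that remained called had been picked for this check after their values were seen, so it is no separate support. Depp1, a gene regulated by FOXO factors and picked likewise, did not remain called without dividing cells. Its log2 difference was -1.79 with all cells and -0.08 without dividing cells.

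The peripheral to mesenteric difference was then compared with that in the other lymphatic cells of the same pools, in a single edgeR fit of 14 sums with the pool as a block. Of 4201 genes, 158 differed more upward in the Ptx3 and Mrc1 cells (3.76%) and 84 more downward (2%), and 798 had an unadjusted p under 0.05. The direction was the same in both libraries for 231 of the 242, which again is no separate support, with the Xbp1-KO pools alone behind library 2. Without the pool as a block 114 genes were called. Of the 291 genes called between the tissues 154 were also called in the fit with the block, which is 52.9% of them and 63.6% of the 242, all with the same sign. Both fits used the same sums of Ptx3 and Mrc1 cells, so this overlap is no separate support. The mix of other lymphatic cells was not equal between the tissues. In the pools of the fit, Marco cells were 5.98% to 15.5% of them in peripheral and 19.7% to 31.6% in mesenteric pools, and ceiling cells 38.0% to 54.2% and 24.3% to 31.0%. C3 is therefore also given for single classes; the genes after it were compared with the whole mix, whose part in those differences was not tested.

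C3 went the opposite way in the other lymphatic cells. There it stood at 776, 920, 583 and 678 CPM in the peripheral pools and at 1253, 1812 and 1995 CPM in the mesenteric pools, and the difference of the 2 tissue differences was 3.10 ± 0.20 (edgeR adjusted p = 3.19e-11). Within the Marco cells C3 stood at 1255, 1444, 1599 and 1287 CPM against 2115, 2417 and 2307 CPM, and within the floor cells at 1292, 1577, 1626 and 1381 CPM against 1984, 2480 and 3201 CPM. In both classes all mesenteric pools were above all peripheral pools, the reverse of the Ptx3 and Mrc1 cells.

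Fth1, the ferritin heavy chain that stores iron, behaved alike. It stood at 5506, 4816, 4952 and 5421 CPM in peripheral and 2219, 3156 and 1916 CPM in mesenteric Ptx3 and Mrc1 cells, and at 8907, 8750, 7561 and 7902 CPM against 10961, 10733 and 9111 CPM in the other lymphatic cells (1.63 ± 0.11). Trf, transferrin, the iron carrier, differed by 3.24 ± 0.47 more in the Ptx3 and Mrc1 cells, where it stood at 122, 160, 87.7 and 153 CPM against 15.2, 15.9 and 30.5 CPM. Its first mesenteric value, of the WT pool, lay under 22.8 CPM, the floor of 3 UMIs for that group. Clu stood at 872, 497, 231 and 441 CPM against 281, 510 and 275 CPM, with overlapping pools, but at 4683, 3285, 2928 and 2933 CPM against 6784, 4971 and 5276 CPM in the other cells (difference 1.58 ± 0.22). Fth1 and Clu were picked after their values had been seen, Clu from the complement list.

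Of the 10 tested complement genes 8 had a larger peripheral excess in the Ptx3 and Mrc1 cells than in the other lymphatic cells (median 1.51), among them C2, C3, Cfb, Serping1, Cd55, Cd59a and Clu. Itih5 did not pass (1.14 ± 0.37, edgeR adjusted p = 0.0727). Among the other lists, Cxcl12, Cxcl9, Il33 and Csf1 differed upward among 13 chemokines and cytokines, and Scarb2, Clec4g and Clec1a among 11 scavenger receptors. H2-K1, H2-D1 and B2m did among 11 antigen presentation genes, and Ifit1, Ifit2, Rsad2, Ifi27l2a and Gbp4 among 21 interferon-stimulated genes. Plxnd1 and Unc5b differed downward among 17 VEGF and guidance genes. Among 26 genes of heat and dissociation, Fos, Fosb, Ier2 and Ier3 differed upward and Atf3 and Hsph1 downward. Plvap, Gpihbp1 and Glycam1 did upward among 8 blood endothelial genes, and Hmgb2 downward among 8 dividing genes. The part of dissociation and of other cells in this contrast was not tested.

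Selenop (1.33 ± 0.13), Tnc (1.53 ± 0.18), F8 (1.47 ± 0.18), Il6st (1.43 ± 0.16), Lgmn (1.89 ± 0.24) and Csf1 (1.98 ± 0.27) all had a larger peripheral excess in the Ptx3 and Mrc1 cells than in their neighbours. Of the remaining genes with the highest differences upward, Serpina3n (4.30 ± 0.61), Dcn (4.24 ± 0.67) and Vegfb (2.89 ± 0.61) were absent from no group, while Cxcl12, C1qtnf7, Gpam, Gbp4 and Pink1 were absent from a mesenteric group of Ptx3 and Mrc1 cells. Dcn, however, lay under the floor of 3 UMIs over a group in both mesenteric groups, so its fitted value is uncertain. Rsad2, at 3.58 ± 0.77, stood at -1.99 without the WT peripheral pool of library 1. Downward, the highest differences were those of Emp1 (-4.29 ± 0.68), Stc1, Mall, Gdf15 (-2.59 ± 0.58), Olfml2a, Cd24a (-2.40 ± 0.44), Mmp9 (-2.37 ± 0.58), Nedd9, Sox7, Lmna (-2.33 ± 0.33), Bcl6b and Madcam1 (-2.19 ± 0.44).

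**Figure D4:**
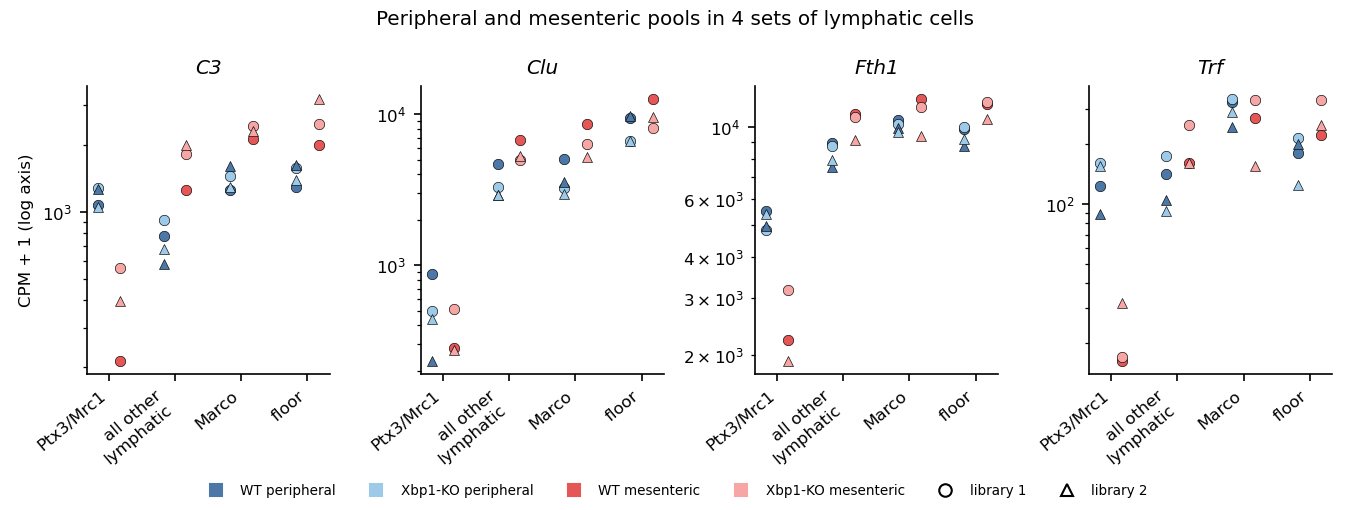
Level (CPM plus 1, log axes with different ranges) of C3, Clu, Fth1 and Trf in 4 sets of lymphatic cells, with peripheral pools (blue) left of mesenteric pools (red) and circles and triangles for libraries 1 and 2. C3 and Fth1 were higher in peripheral pools of the Ptx3 and Mrc1 cells and higher in mesenteric pools of the floor cells.

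The deletion was looked for in the target gene first. Xbp1 (chromosome 11, 5520659 to 5525893, plus strand) stood at 117, 91.2 and 112 CPM in the WT pools of Ptx3 and Mrc1 cells and at 69.7, 31.9, 37.1 and 61.1 CPM in the Xbp1-KO pools. The 3 WT mesenteric cells left out of library 2 held no Xbp1 UMI. All WT pools of the fit were above all Xbp1-KO pools. The log2 difference was -0.85 ± 0.37 and did not pass (edgeR adjusted p = 0.790, unadjusted 0.0275). Reads near the 3′ end need not cover the deleted exon, which the labels do not name, so this level does not settle how many cells had lost the gene.

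No gene was called between Xbp1-KO and WT in the Ptx3 and Mrc1 cells: 0 of 4201 in either direction (0%), with 249 genes at an unadjusted p under 0.05 and 0 called by DESeq2. The smallest edgeR adjusted p was 0.130. Of the 28 tested endoplasmic reticulum targets of XBP1, 9 had a positive difference and the median was -0.10, beside 0.02 for all genes. The chaperone Hspa5 (BiP) differed by -0.21 ± 0.22, the chaperone Hsp90b1 by 0.13 ± 0.19 and the degradation factor Herpud1 by -0.56 ± 0.36.

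The genes with the smallest p on the lower side were Klf9 (-1.41 ± 0.28), Smc4 (-1.20 ± 0.25), Depp1 (-1.12 ± 0.25), Flna (-1.33 ± 0.32) and Elk3 (-0.82 ± 0.21). On the higher side they were Socs3 (1.62 ± 0.39), Slfn5 (0.95 ± 0.23), Kdm6b (1.09 ± 0.32), Kcnq1ot1 (0.92 ± 0.27) and Gadd45g (1.91 ± 0.57). These are values of genes that did not pass. With dividing cells left out the Depp1 difference was 0.11. For Smc4 and Socs3 the peripheral pools of WT and Xbp1-KO overlapped, and the WT mesenteric side was a single pool. Leaving out single pools gave 0 to 10 called genes, the highest without the Xbp1-KO peripheral pool of library 1.

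Whether the genotype difference was the same in both tissues was tested as an interaction, for which only library 1 had all 4 pools. Of 4201 genes, 5 had a more positive Xbp1-KO minus WT difference in peripheral than in mesenteric cells (0.119%) and 3 a more negative one (0.0714%), with 282 at an unadjusted p under 0.05. DESeq2 called 0. With dividing cells left out 1 gene was called, and leaving out single pools gave 0 to 24.

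The 8 genes were Ccl21a, Smc4, Prc1, Cenpf and Dek, and Mt1, Gbp4 and Socs3. Smc4, a condensin subunit, stood at 137, 171, 152 and 139 CPM in the peripheral pools, at 426 CPM in the WT mesenteric pool and at 47.8 and 76.3 CPM in the Xbp1-KO mesenteric pools (interaction 2.74 ± 0.51). Mt1, a metal-binding metallothionein, stood at 385, 326, 319 and 283 CPM in the peripheral pools, at 30.4 CPM in the WT mesenteric pool and at 239 and 198 CPM in the Xbp1-KO mesenteric pools (-3.10 ± 0.61). Socs3, a feedback inhibitor of gp130 signalling, stood at 309, 211, 167 and 265 CPM, 22.8 CPM, and 143 and 275 CPM in the same order (-3.52 ± 0.77). Each of the 3 genes turned on the WT mesenteric pool of library 1, the same pool in which 7 of 23 cells were dividing.

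Ccl21a, a chemokine of lymphatic and reticular cells whose near-identical copies share reads, stood at 187, 441, 311 and 5138 CPM in the peripheral pools, at 2462 CPM in the WT mesenteric pool and at 733 and 15.3 CPM in the Xbp1-KO mesenteric pools (6.55 ± 1.11, edgeR adjusted p = 0.0115). In the Xbp1-KO peripheral pool of library 2 it was found in 11 of 31 cells, with up to 270 UMIs in a cell. That pool also held the reticular and mural transcripts Ccl19 (97.5 CPM), Rgs5 (139 CPM) and Acta2 (78.9 CPM), whose part in this level was not tested.

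**Figure D5:**
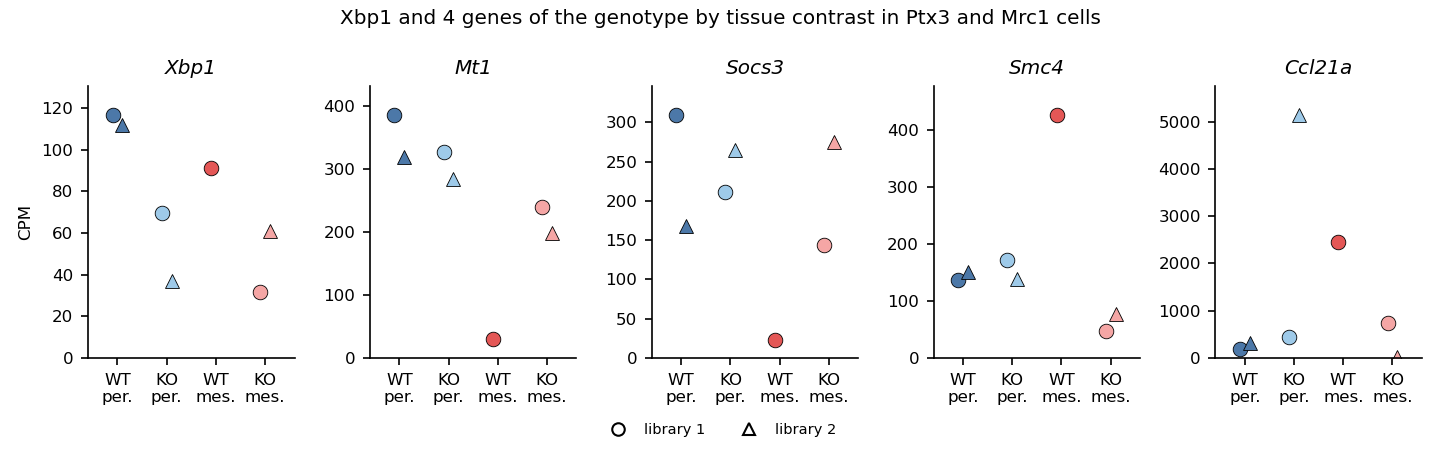
Level (CPM, axes from 0) of Xbp1 and of 4 genes of the genotype by tissue contrast in the Ptx3 and Mrc1 cells, with a point for each pool, circles for library 1 and triangles for library 2. Mt1 and Socs3 were lowest and Smc4 highest in the only WT mesenteric pool, and the level of Ccl21a in the Xbp1-KO peripheral pools ran from 441 to 5138 CPM.

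Against the other lymphatic cells of the same pools, the genotype difference was more negative in the Ptx3 and Mrc1 cells for 3 of 4201 genes (0.0714%) and more positive for 0 (0%), with 358 at an unadjusted p under 0.05. These were Smc4 (-1.36 ± 0.27), the immediate-early gene Btg2 (-0.99 ± 0.20) and the heat shock gene Hspa1b (-0.79 ± 0.14), whose near-identical copy Hspa1a shares its reads. Btg2 and Hspa1b are on the list of heat and dissociation genes, of which 3 of 26 had a positive difference. The median of that list was -0.63, beside 0.03 for all genes, and the part of dissociation was not tested. Of these 3 genes only Smc4 had the same direction in both libraries, and in library 2 alone Btg2 differed by 0.17 and Hspa1b by 0.02. The library 2 direction came from its peripheral pools only, since its WT mesenteric pool was left out. In the peripheral pools the Smc4 levels of WT and Xbp1-KO overlapped. Its highest level was in the WT mesenteric pool of library 1, where 7 of 23 cells were dividing. Without the pool block 0 genes were called. The genotype difference of Xbp1 itself differed by 0.32 ± 0.39 between the Ptx3 and Mrc1 cells and the other lymphatic cells (edgeR adjusted p = 0.878).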

How the data were processed

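The authors deposited raw counts of UMIs for each gene in each barcode. The headers of the files name Cell Ranger 6.0.1, and the submitters' processing notes name version 6.1 and mm10. The deposited barcode lists were already reduced to cells. No doublet caller was run; cells without a clear leading hashtag were left out. Of 32285 gene identifiers, GENCODE M21 (GRCm38) held 32158 (99.6%) and gave the coordinates.

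Library 1 held 7709 barcodes with 33024170 gene UMIs and library 2 held 2903 with 14744778. After the filters 7177 and 2742 cells were kept, with medians of 3639 and 4372.5 UMIs. Counts of the Ptx3 and Mrc1 cells were summed per library and pool; sums of fewer than 5 cells were left out, which left 7. edgeR 4.0.16 in R 4.3.3 fitted the 4 groups (TMM, filterByExpr, glmQLFTest, 3 residual degrees of freedom), and was tested on simulated data. DESeq2 1.42.0 was the alternative. Same-numbered pools of the libraries did not deviate together (correlations of -0.02, 0.02 and 0.05 over 4201 genes), so the library was no block in the fit of these sums. Lower bounds used 3 UMIs over a group.

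The cells and gene lists were chosen with earlier results of these data known. Named genes were the 24 highest and 12 lowest by median ratio against other lymphatic cells, the 12 strongest called genes per direction of a contrast with a logCPM of at least 4 and the same direction in both libraries (5 with the smallest p where none was called), Xbp1, the panel genes, and 2 to 4 genes of each list; other genes are stated to be picked after their values were seen. Some results for genes that these rules name are not reported here.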

Additional observations from a re-analysis of the deposited data

Results flagged for a closer look

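In the Ptx3 and Mrc1 cells the Xbp1-KO minus WT difference was itself different between peripheral and mesenteric nodes for 8 genes, by the interaction test of edgeR at an adjusted p under 0.05. On the log2 scale, peripheral minus mesenteric, the values were 6.55 for the chemokine gene Ccl21a, 7.0 for Prc1, 6.18 for Cenpf, 2.74 for Smc4 and 2.52 for Dek. They were -3.10 for the metallothionein Mt1, -7.80 for the guanylate-binding protein Gbp4 and -3.52 for Socs3. Prc1, Cenpf, Smc4 and Dek serve cell division or chromatin, and 7 of 23 cells of the WT mesenteric pool of library 1 were dividing. Gbp4 had no UMI in that pool, so its fitted value is no bound. That pool was the only WT mesenteric one in the fit, and the part of dividing cells was not tested beyond leaving them out, which left 1 gene called.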

How the results depend on the processing

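The tissue difference gave 291 calls and 75 by DESeq2 (53 up and 20 down shared), 140 in WT and 67 in Xbp1-KO pools alone, 152 without dividing cells, and 159 to 343 without single pools (lowest without Xbp1-KO mesenteric replicate 2; 167 without WT peripheral replicate 1). The genotype difference gave 0 calls, 6 without the filter, and 0 to 10 without single pools. The interaction gave 8, 33 without the filter, 0 by DESeq2, 1 without dividing cells, and 0 to 24 without single pools. The samples share only a library number: with that replicate block the tissue difference gave 282 calls (206 with sex added), the genotype difference 0 and the interaction 5 (1 with sex).

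The tissue difference against other lymphatic cells gave 242 calls, 114 without the replicate block of pools, and 129 to 275 without single pools. The genotype difference against them gave 3 calls, 0 without that block, 10 without the filter, 13 with the filter over all 14 sums, 7 with a panel sum of at least 3, and 0 to 14 without single pools. The share differences kept within 1 SD of their values in each alternative tried, at 2.33 to 3.59 points between tissues. That between genotypes, 0.364 points, reversed its sign to -0.945 without replicate 2 and was 1.67 without replicate 1.

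Signs reversed for Rgs2 between tissues (-0.0302 in Xbp1-KO pools alone), Depp1 between genotypes (0.11 without dividing cells), the Xbp1 interaction (-0.80 to 0.63 without single pools or a library; 0.01 without Xbp1-KO peripheral and 0.53 without Xbp1-KO mesenteric replicate 2), the tissue difference of Rsad2 against other cells (-1.99 without WT peripheral replicate 1, up to 8.48) and the genotype difference of Xbp1 against them (-0.0826 without Xbp1-KO peripheral replicate 1, up to 0.46; -0.05 without Xbp1-KO mesenteric replicate 2). The cause was not tested. The fit without WT mesenteric replicate 1 could not be made, since no WT mesenteric sum is then left. Leaving out dividing cells, the Xbp1-KO pools alone and the filter over 14 sums were chosen after seeing the data. Sums of 9 to 23 mesenteric cells limit what could be detected: a gene at 0 there is not shown to be absent.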
